A study of Mus musculus with 9 samples.

Results

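The 10 CC chemokine genes Ccl2, Ccl3, Ccl4, Ccl5, Ccl6, Ccl7, Ccl8, Ccl9, Ccl11 and Ccl12 were followed in leg muscle of mice after an ischaemic hindlimb injury. They were picked by their symbols, and all 10 were found among the 55335 genes of the count table. Expression was measured by RNA sequencing in 9 WT mice, given as c57b6l in the labels. Every animal, the controls included, carried the injury, which the labels call a hindlimb suspension ischemia model. The Control group was left untreated (3 mice), the Aspirin group received aspirin, an inhibitor of the cyclooxygenases (3 mice), and the last group received aspirin combined with a peptide hydrogel (3 mice). Libraries of that last group are called hydrogel libraries, although aspirin was given there too. No sample of muscle without injury, or of hydrogel alone, was analysed here, and the labels give no age, sex, dose or time after injury.

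CC chemokines are small secreted proteins that attract leukocytes through G protein-coupled receptors. In injured muscle, monocytes that carry the receptor Ccr2 leave the blood and become the macrophages that clear dead fibres, and these macrophages make many chemokines themselves. Ccl2, Ccl7 and Ccl12 are ligands of Ccr2. Ccl6 and Ccl9 are rodent ligands of Ccr1, which monocytes, macrophages and neutrophils carry, and Ccl3 and Ccl5 also bind Ccr1. Ccl4 is a close relative of Ccl3. Mouse Ccl8 acts through Ccr8, and Ccl11 (eotaxin) attracts eosinophils through Ccr3.

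Total counts per library ran from 32197791 to 48170537, and 18259 genes passed the filter on low counts, among them 10 of the 10 chemokines. Levels within a gene are given as CPM, counts scaled by the library size after TMM scaling. A library with no count of a gene lies below 0.0554 to 0.1 CPM (3 counts, a limit that covers counting error only). The summed level of 6 muscle fibre markers, led by Myh4, lay between 16636 and 257172 CPM, so each library held RNA of skeletal muscle. A pair of libraries stood apart. Aspirin replicate 1 had the lowest fibre sum and the largest scaling factor (1.63), and Hydrogel replicate 3 had the highest fibre sum and the smallest factor (0.688). Of the 10 chemokines, 6 were highest in Aspirin replicate 1 and 6 were lowest in Hydrogel replicate 3. Results are therefore also given without each of these libraries. The labels put no batch in words, but each sample carries a code number, 9 in the controls, 8 in the hydrogel libraries, 7 in Aspirin replicates 1 and 2 and 10 in Aspirin replicate 3. Since each number occurs in a single group, whatever it marks cannot be told apart from treatment. A second part of the code recurs across groups, for example in Control replicate 2 and Aspirin replicate 3. Its meaning is not given, and it was not fitted.

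All 10 genes lie on chromosome 11 (GENCODE vM21 on mm10), in a pair of groups 1409.0 kb apart. The first group spans 81.2 kb and holds, in order, Ccl2 (82035571 to 82037453), Ccl7 (82045712 to 82047525), Ccl11 (82057823 to 82062955), Ccl12 (82101845 to 82103400) and Ccl8 (82115185 to 82116799), which are all on the plus strand. The second group spans 138.9 kb and holds Ccl5 (83525778 to 83530518), Ccl9 (83572919 to 83578636), Ccl6 (83587882 to 83593087) and Ccl3 (83647844 to 83649355) on the minus strand, followed by Ccl4 (83662584 to 83664683) on the plus strand. No exonic base of any of the 10 genes is shared with another annotated gene. Of the 50-base words in their transcripts, 59 of 2996 in Ccl9 (1.97%) also occur in other genes and 0 in each of the other nine. Ccl2 and Ccl8 sit at the ends of the first group, and Ccl6 and Ccl9 are neighbours in the second.

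RefSeq's promoter table (GRCm38.p6) held 5 of the 10 genes, namely Ccl3, Ccl6, Ccl8, Ccl9 and Ccl12. The 250 bases before the start of Ccl8, Ccl9 and Ccl6 are shown because these genes gave most of the chemokine transcripts in every library. They lie at chr11:82114935-82115184 (plus strand), chr11:83578637-83578886 (minus strand) and chr11:83593088-83593337 (minus strand). Each is written 5′ to 3′ on the gene's own strand, with the start site just after the last base, and capitals mark matches to the motifs named next.
Ccl8: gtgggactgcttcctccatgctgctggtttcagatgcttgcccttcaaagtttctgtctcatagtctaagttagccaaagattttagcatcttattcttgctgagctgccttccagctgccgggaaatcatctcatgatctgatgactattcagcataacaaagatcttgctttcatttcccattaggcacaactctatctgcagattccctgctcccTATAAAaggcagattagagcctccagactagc
Ccl9: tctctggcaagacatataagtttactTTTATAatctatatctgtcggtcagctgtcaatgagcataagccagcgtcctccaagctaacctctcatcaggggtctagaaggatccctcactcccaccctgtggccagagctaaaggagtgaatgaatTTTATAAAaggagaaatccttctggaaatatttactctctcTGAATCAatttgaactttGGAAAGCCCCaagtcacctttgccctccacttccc
Ccl6: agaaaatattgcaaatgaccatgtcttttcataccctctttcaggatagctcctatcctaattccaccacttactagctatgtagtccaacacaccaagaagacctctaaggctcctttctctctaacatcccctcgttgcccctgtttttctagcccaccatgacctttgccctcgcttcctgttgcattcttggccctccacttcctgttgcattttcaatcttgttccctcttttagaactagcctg

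6 motifs were searched on both strands: TATAAA, the AP-1 motif TGANTCA, the C/EBP motif TTGCNNNAA, the STAT motif TTCNNNGAA, the interferon-stimulated element and the NF-kB consensus (the last 2 with 10 letters each). Ccl8 has a TATAAA match at positions -32 to -27 from the start, and Ccl12 has one at -31 to -26. Ccl9 has TATAAA at -92 to -87, which overlaps a match on the other strand at -94 to -89, and a further match on the other strand at -224 to -219. Ccl9 also holds an AP-1 match (-53 to -47) and an NF-kB match on the other strand (-35 to -26). The windows of Ccl6 and Ccl3 held none of the 6 motifs. TATAAA thus occurred in 3 of 5 windows, against 12.4% of 32851 promoter windows of the same length. The NF-kB motif occurred in 1 of 5 (7.25% of all windows) and the AP-1 motif in 1 of 5 (6.75%). The C/EBP, STAT and interferon-stimulated motifs occurred in 0 of 5, with 8.29%, 7.02% and 2.98% of all windows. Aligned to each other, the windows of the neighbours Ccl9 and Ccl6 were identical at 54.0% of positions, and those of Ccl12 and Ccl8, also neighbours, at 60.0%, the highest of the 10 pairs. These matches describe letters in a window and say nothing of binding.

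Levels can be set against each other between genes only per transcript length, for which the deposited FPKM values (fragments scaled by transcript length and library size) were used. By mean FPKM over the 9 libraries the order was Ccl8 (79.8), Ccl6 (75.7), Ccl9 (36.6), Ccl11 (9.84), Ccl7 (7.75), Ccl5 (5.21), Ccl12 (4.88), Ccl2 (2.48), Ccl3 (2.05) and Ccl4 (1.22). Ccl8 and Ccl6 changed places by median (35.7 and 37.1 FPKM), and Ccl8 was above Ccl6 in 6 of 9 libraries. Ccl6 was above Ccl9 in 9 of 9 libraries. The other neighbours in the order were ranked the same way in 5 to 7 of the 9, which is within their spread. Ccl2, the best known of the monocyte attractants, therefore stood among the scarcer of these transcripts, from 0.0928 to 7.79 FPKM. In absolute FPKM the most abundant had the widest range, from 16.3 to 385 for Ccl8 and from 13.2 to 348 for Ccl6. In proportion to their level, scarcer genes such as Ccl7 (0.326 to 30.4 FPKM) and Ccl12 (0.0781 to 20.8 FPKM) ranged wider than these. Ccl11 stayed between 5.89 and 17.8 FPKM.

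The ligands of Ccr2 were highest in the Aspirin group. Ccl2 stood at 1.87, 0.871 and 1.92 CPM in Control replicates 1, 2 and 3, at 6.14, 2.55 and 7.94 CPM in Aspirin replicates 1, 2 and 3, and at 1.19, 2.63 and 0.200 CPM in the hydrogel libraries. Each Aspirin value was above each control value, while Aspirin replicate 2 and Hydrogel replicate 2 were close to each other. Ccl7, the neighbour of Ccl2 and also an attractant of monocytes, stood at 2.70, 1.65 and 4.68 CPM in the controls, at 16.8, 5.72 and 15.1 CPM after aspirin, and at 2.35, 3.81 and 0.434 CPM in the hydrogel libraries. Its 3 Aspirin values lay above the other 6. Both genes were high in Aspirin replicates 1 and 3 and lower in replicate 2. Ccl12 followed another order within the group, at 1.63, 0.156 and 4.04 CPM in the controls, 7.71, 4.17 and 1.14 CPM after aspirin, and 1.14, 1.33 and 0.0667 CPM in the hydrogel libraries. Its Aspirin replicate 3 lay among the controls, and the groups overlapped. The lowest hydrogel value of Ccl12 rested on 2 counts and that of Ccl2 on 6.

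Ccl6, Ccl9 and Ccl8 were high in 2 of the 3 Aspirin libraries. Ccl6 stood at 71.9, 38.6 and 49.7 CPM in the controls, at 431, 245 and 50 CPM after aspirin, and at 87.3, 75.4 and 37.5 CPM in the hydrogel libraries. Ccl9 stood at 57.7, 30.0 and 49.4 CPM in the controls, at 385, 188 and 39.2 CPM after aspirin, and at 60.5, 46.1 and 12.6 CPM in the hydrogel libraries. For both genes Aspirin replicates 1 and 2 were above the other 7 libraries, and Aspirin replicate 3 lay within the range of the controls. Ccl8 stood at 19.5, 12 and 22.4 CPM in the controls, at 135, 47.8 and 21.1 CPM after aspirin, and at 15.7, 38.4 and 13.2 CPM in the hydrogel libraries. It had the same order as Ccl6 in the Aspirin group, with replicate 3 again among the controls, so the Aspirin and Control groups overlapped for all 3 genes. Their Aspirin means, 242 ± 190 CPM for Ccl6, 204 ± 173 CPM for Ccl9 and 68.1 ± 59.8 CPM for Ccl8 (SD, n = 3), carry that spread.

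Ccl3 and Ccl4 varied together across the libraries, and Ccl5 did not follow them. Ccl3, which macrophages and neutrophils make, stood at 0.185, 0.112 and 2.41 CPM in the controls, at 4.29, 1.66 and 3.23 CPM after aspirin, and at 0.387, 1.06 and 0.434 CPM in the hydrogel libraries. Its Aspirin values were all above its hydrogel values, but Control replicate 3 was above Aspirin replicate 2. Ccl4, its close relative, stood at 0.314, 0.156 and 1.98 CPM in the controls, at 1.81, 0.562 and 1.46 CPM after aspirin, and at 0.411, 0.544 and 0 CPM in the hydrogel libraries. The highest hydrogel value (18 counts) was just below the lowest Aspirin value (24 counts), and the zero in Hydrogel replicate 3 allows up to 0.1 CPM. Ccl5, which T cells and NK cells also make, stood at 12.5, 4 and 5.06 CPM in the controls, at 6.95, 1.34 and 0.429 CPM after aspirin, and at 5.30, 8.10 and 0.434 CPM in the hydrogel libraries. It was the one gene of the 10 with a lower Aspirin mean (2.90 ± 3.53 CPM) than Control mean (7.18 ± 4.62 CPM, SD, n = 3), and all groups overlapped.

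Ccl11 varied least. It stood at 8.93, 14.3 and 12.3 CPM in the controls, at 13.3, 15 and 8 CPM after aspirin, and at 7.40, 10.4 and 12.4 CPM in the hydrogel libraries. The group means were 11.8 ± 2.71, 12.1 ± 3.67 and 10.1 ± 2.51 CPM (SD, n = 3), and the groups overlapped. In Aspirin replicate 1, where 6 of the other chemokines were at their highest, Ccl11 was below its values in Control replicate 2 and Aspirin replicate 2.

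**Figure D1:**
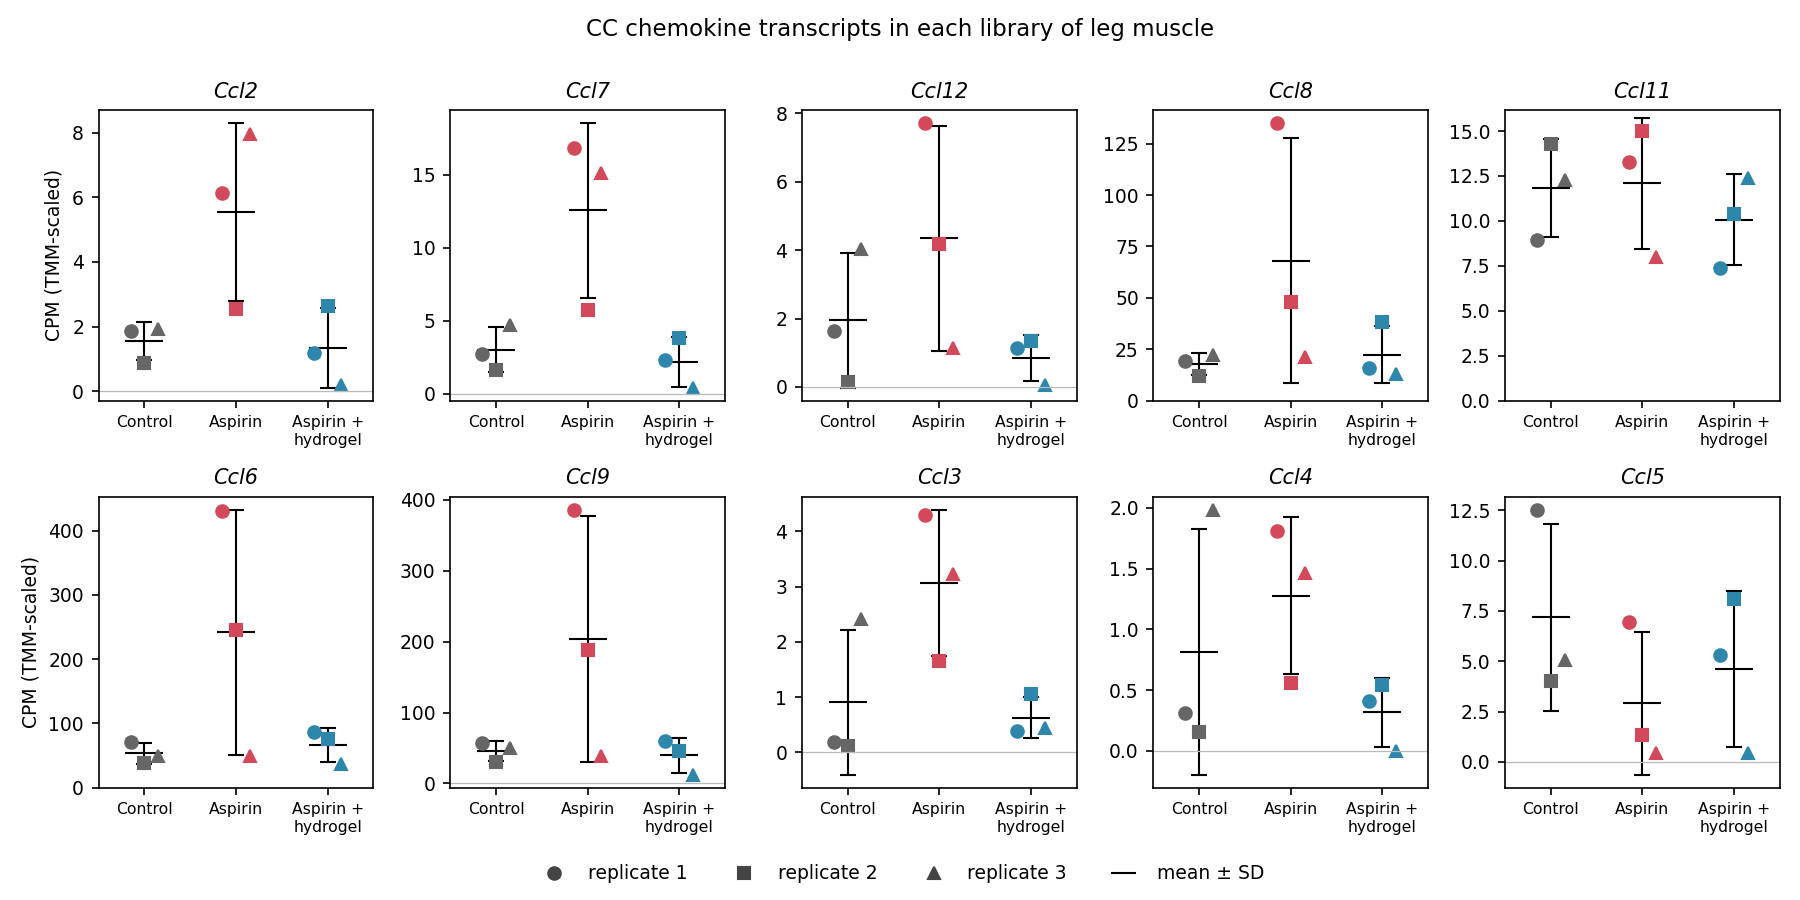
CPM (counts scaled by TMM library size, linear axis, one scale per gene) of the 10 CC chemokines in each library of the Control, Aspirin, and aspirin with hydrogel groups; symbols give the replicate number, and lines and bars give the mean ± SD of 3 libraries. The Aspirin libraries of Ccl2 and Ccl7 lie above the controls, Ccl6, Ccl8 and Ccl9 are high in Aspirin replicates 1 and 2 (Ccl6 at 431 and 245 CPM) but not in replicate 3 (50 CPM), and Ccl11 lies between 7.40 and 15 CPM throughout.

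After aspirin, compared with untreated injured muscle, most of these chemokines had a higher fitted level. Of the 10, 9 had a positive log2 fold change, with a median of 1.81, against 54.0% of all genes and a median over all genes of 0.046. The highest were Ccl6 (2.18 ± 0.68, SE), Ccl9 (2.16 ± 0.80), Ccl7 (2.06 ± 0.74), Ccl8 (1.92 ± 0.67) and Ccl2 (1.84 ± 0.80). None passed the test: edgeR's quasi-likelihood test with Benjamini-Hochberg adjustment over 18259 genes called 0 of 10 chemokines and 0 genes in all (0.0%), with adjusted p from 0.753 to 0.985 for the 10. At an unadjusted p under 0.05, 1183 genes (6.48%) differed in either direction. Those 5 chemokines were among the 564 that were higher (3.09%), with unadjusted p from 0.0111 for Ccl6 to 0.0471 for Ccl2. The 95% interval for Ccl6 ran from 0.63 to 3.73 and that for Ccl7 from 0.38 to 3.74, and the interval for Ccl2 began at 0.029. Ccl3 (1.78 ± 1.05), Ccl12 (1.17 ± 1.17) and Ccl4 (0.66 ± 1.17) had intervals that include 0. So did Ccl11 (0.033 ± 0.32), whose interval of -0.68 to 0.75 was the narrowest, and Ccl5 (-1.30 ± 1.11). The Aspirin and Control libraries did not overlap for 2 of the 10, Ccl2 and Ccl7, which were higher after aspirin, as were 5.54% of all genes tested. Whether the mice were separate litters or handled on separate days is not given, so the p-values measure the spread between these libraries.

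These values leaned on single libraries. Without Aspirin replicate 1 the median of the 10 was 1.12, and 2 had an unadjusted p under 0.05, Ccl6 (1.45) and, in the lower direction, Ccl5 (-3.03), with an adjusted p of 0.897 in edgeR for each. Ccl7 was then at 1.78, Ccl2 at 1.74, Ccl9 at 1.31 and Ccl8 at 0.93, and Ccl11 turned to -0.043. Without Aspirin replicate 3, by contrast, Ccl6 was at 2.68, Ccl9 at 2.67 and Ccl8 at 2.38 (adjusted p = 0.302 in edgeR for each), while Ccl2 was at 1.51. The number with an unadjusted p under 0.05 was 3 when Control replicate 1 was left out, and 1 when Control replicate 2 was. It was 3 (Ccl6, Ccl7 and Ccl9) when the replicate number was fitted as a block. DESeq2, which called 101 genes (0.553%), called 0 of the 10 here, with adjusted p of 0.101 or more.

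**Figure D2:**
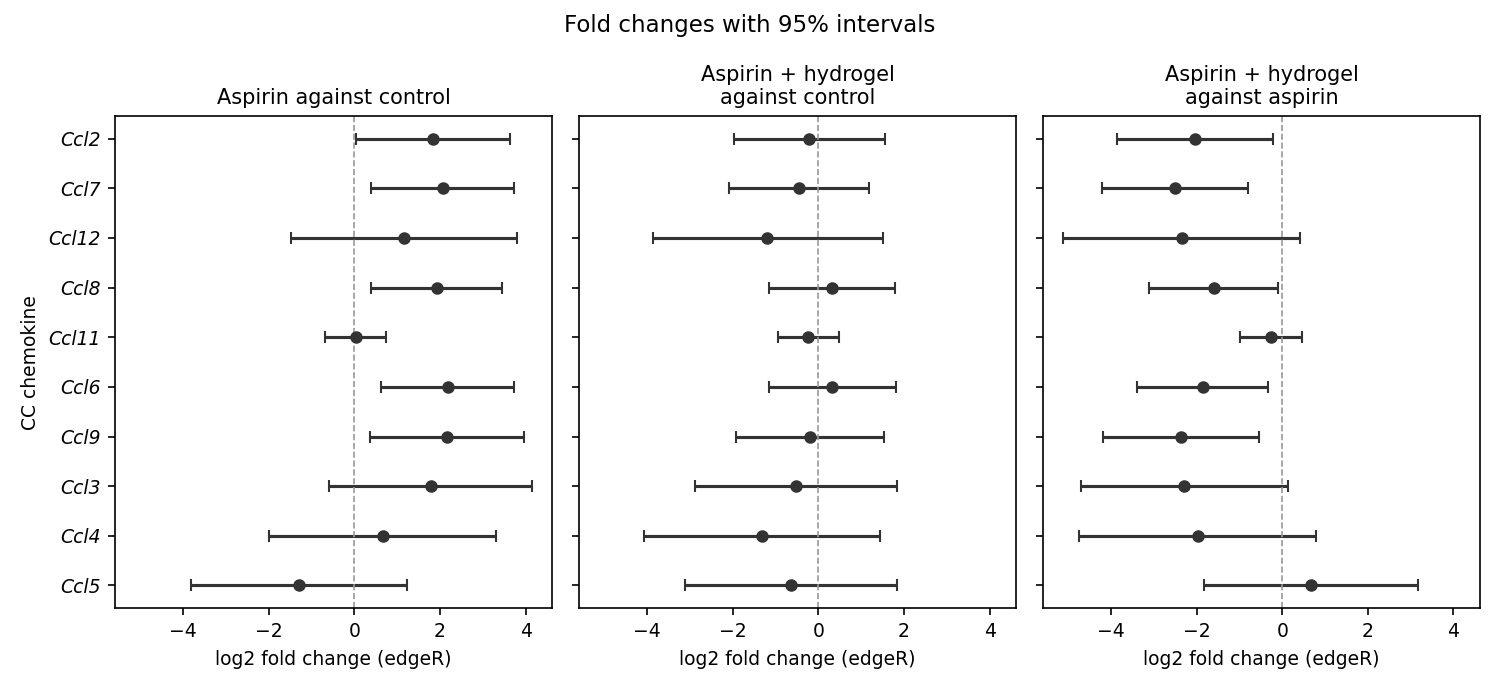
Log2 fold changes of the 10 CC chemokines (horizontal axis) with 95% intervals from edgeR's quasi-likelihood fit of 9 libraries, in 3 panels: aspirin against control, aspirin with hydrogel against control, and aspirin with hydrogel against aspirin. Ccl2, Ccl6, Ccl7, Ccl8 and Ccl9 have intervals above 0 in the first panel and below 0 in the third; no adjusted p passed 0.05.

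With aspirin and hydrogel together, compared with untreated injured muscle, the chemokines lay near the control level. The log2 fold changes of the 10 ran from -1.32 (Ccl4, SE 1.22) to 0.32 (Ccl6, SE 0.66, and Ccl8, SE 0.65), with a median of -0.34 against -0.03 over all genes. Of the 10, 2 were positive, against 47.1% of all genes. Ccl7 was at -0.45 ± 0.72 and Ccl2 at -0.21 ± 0.78, with a 95% interval for Ccl2 of -1.98 to 1.56, which leaves room for changes of either sign. edgeR called 0 of 10 and 0 genes in all (0.0%), with adjusted p from 0.987 to 0.992, and none of the 10 had an unadjusted p under 0.05, against 716 genes (3.92%). DESeq2 called 18 genes (0.0986%) and none of the 10. No chemokine had groups that did not overlap in CPM, whereas 6.85% of genes tested were higher and 6.3% lower without overlap. By FPKM the hydrogel values of Ccl11 were all below its control values. The median was -0.058 without Hydrogel replicate 3, -0.027 without Control replicate 3, -0.65 without Control replicate 2 and -1.12 without Hydrogel replicate 2.

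Between the treated groups, 9 of the 10 chemokines had a lower fitted level with aspirin and hydrogel than with aspirin alone. 1 was positive, against 46.7% of all genes. The median log2 fold change was -2.01, against -0.053 over all genes, with Ccl7 at -2.51 ± 0.75 (SE, 95% interval -4.22 to -0.80), Ccl9 at -2.36 ± 0.80, Ccl12 at -2.35 ± 1.22, Ccl3 at -2.29 ± 1.07, Ccl2 at -2.05 ± 0.81, Ccl4 at -1.98 ± 1.23, Ccl6 at -1.86 ± 0.68 and Ccl8 at -1.60 ± 0.67. Ccl11 was at -0.27 ± 0.32, and Ccl5, at 0.66 ± 1.10, was the exception in sign. edgeR's quasi-likelihood test called 0 of 10 and 0 genes in all (0.0%), with adjusted p from 0.453 to 0.798. At an unadjusted p under 0.05, 5 of the 10 were lower (Ccl2, Ccl6, Ccl7, Ccl8 and Ccl9), as were 7.61% of all genes (10.9% differed in either direction). The smallest was that of Ccl7 (unadjusted p = 0.00891). DESeq2 called 157 genes (0.86%), and of the 10 it called Ccl7 alone, at -2.53 with an adjusted p of 0.0499. Ccl3, Ccl4 and Ccl7 had groups that did not overlap and were lower with the hydrogel (3 of 10, against 8.75% of all genes), and Ccl2 joined them by FPKM.

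This comparison shares its Aspirin libraries with the first, so the pair of comparisons are not independent, and the same 5 genes appear in both. Without Aspirin replicate 1 the median was -1.58, and of the 10 only Ccl7 had an unadjusted p under 0.05 (-2.24, adjusted p = 0.808 in edgeR), with Ccl8 at -0.62. Without Hydrogel replicate 3 the median was -1.59, with unadjusted p under 0.05 for 3 of the 10, Ccl2 (-1.57), Ccl7 (-2.06) and Ccl9 (-1.98), and 3 also passed without Hydrogel replicate 1. Ccl7 had an unadjusted p under 0.05 in each of these fits. Over all 3 groups at once, edgeR called 0 genes (0.0%) and DESeq2 153 (0.838%), none of them among the 10, and Ccl7 had the smallest unadjusted p of the 10 (0.0123, adjusted p = 0.659), where 1272 genes (6.97%) had one under 0.05.

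The make-up of the chemokine pool also differed between libraries. Summed over the 10 genes, FPKM was 142, 64.2 and 102 in Control replicates 1, 2 and 3, 1015, 322 and 99.0 in Aspirin replicates 1, 2 and 3, and 103, 143 and 40.4 in the hydrogel libraries. In TMM-scaled CPM the sums were 177, 102 and 154 in the controls, 1008, 512 and 148 after aspirin, and 182, 188 and 77.3 in the hydrogel libraries. The order of libraries thus depended on the measure: Hydrogel replicate 1 was above every control in CPM and below Control replicate 1 in FPKM. By both measures Aspirin replicate 3 had a chemokine total like that of a control. Ccl6, Ccl8 and Ccl9 together made 66.1% (Aspirin replicate 3) to 90.2% (Aspirin replicate 1) of the sum. In Aspirin replicate 3, Ccl7 made 15.2% and Ccl2 5.61%, while Ccl7 made 0.807% to 4.64% in the other 8 libraries. The Aspirin group therefore held a pair of compositions, one led by Ccl6, Ccl8 and Ccl9 in replicates 1 and 2, and one with a larger part of the Ccr2 ligands Ccl2 and Ccl7 in replicate 3. Replicate 3 is also the Aspirin library with its own code number, 10, and the part of that in the difference was not tested. Ccl11 made 17.4% in Control replicate 2 and 17.8% in Hydrogel replicate 3, where the sums were lowest, and 1.75% in Aspirin replicate 1, where the sum was highest.

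**Figure D3:**
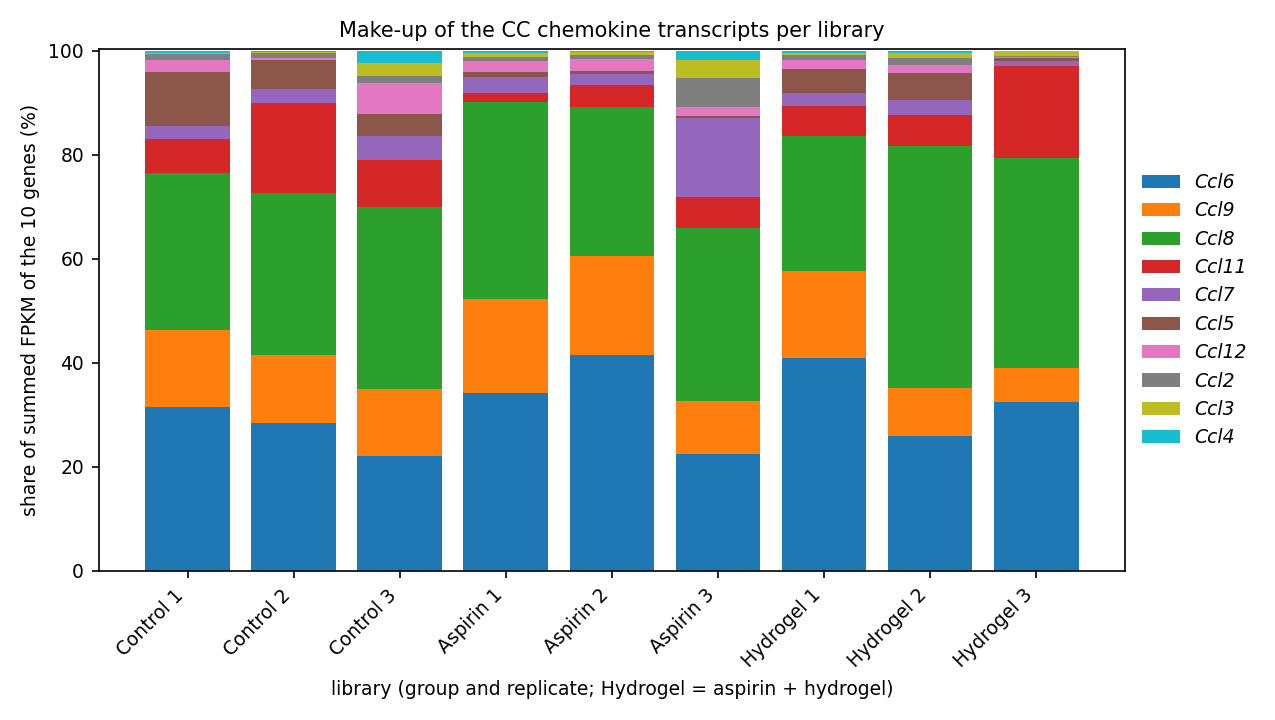
Share of the summed FPKM of the 10 CC chemokines (vertical axis, percent, from 0 to 100) taken by each gene in each of the 9 libraries, as stacked bars with Ccl6, Ccl9 and Ccl8 at the bottom. These 3 genes take 90.2% in Aspirin replicate 1 and 66.1% in Aspirin replicate 3, where Ccl7 takes 15.2%.

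Across the 9 libraries many of the chemokines varied together. Of the 45 pairs, 7 passed by Spearman's rho and 13 by Pearson's r of log2(CPM + 0.5), each with an exact permutation test adjusted over the 45 at 0.05. Ccl2 and Ccl7, neighbours on the chromosome and both Ccr2 ligands, had r = 0.98 and rho = 0.93 (adjusted exact permutation p = 0.00155 and 0.0295, 9 libraries). r was 0.96 without the 2 libraries farthest from the median of Ccl2, 0.98 without Aspirin replicate 1 and 0.95 for deviations from the group means. Ccl6 and Ccl9, neighbours in the second group and both Ccr1 ligands, had r = 0.96 and rho = 0.92 (adjusted exact permutation p = 0.00155 and 0.0295, 9 libraries), and r was 0.79 without Aspirin replicates 1 and 2, 0.91 without Aspirin replicate 1 alone and 0.97 for deviations. Ccl3 and Ccl4, neighbours on opposite strands, had r = 0.89 and rho = 0.85 (adjusted exact permutation p = 0.0134 and 0.039, 9 libraries), with 0.84 when the 2 farthest were left out. Ccl8 and Ccl12 had r = 0.83 and rho = 0.90 (adjusted exact permutation p = 0.0134 and 0.0304, 9 libraries), with 0.63 without Aspirin replicates 1 and 2.

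Neighbouring genes did not always vary together. Ccl7 and Ccl11, which lie next to each other, had r = -0.08 and rho = 0.07. Ccl11 had r from -0.19 to 0.32 with the other nine, and Ccl5 from -0.20 to 0.35, and none of these pairs passed. These low values depended on the measure. For deviations from the group means, Ccl5 had r = 0.89 with Ccl9, 0.83 with Ccl6 and 0.82 with Ccl8, so within the groups it varied with them. By log2(FPKM + 0.1), Ccl11 had r = 0.75 with Ccl8 and 0.74 with each of Ccl6 and Ccl9, whereas for deviations in CPM its r ran from -0.59 to 0.33. No test was run on these further values. Conversely, Ccl4 and Ccl7 lie in different groups of genes and had r = 0.87 and rho = 0.88 (adjusted exact permutation p = 0.0134 and 0.0338, 9 libraries), with r = 0.98 without the 2 farthest. Ccl3 and Ccl7 likewise had r = 0.86 and rho = 0.87 (adjusted exact permutation p = 0.0134 and 0.0338, 9 libraries), and r was 0.79 without the 2 farthest. Ccl7 and Ccl8 passed by rho (0.87, adjusted exact permutation p = 0.0338, 9 libraries) but not by r (0.72, adjusted p = 0.0731), and r was 0.43 without the 2 farthest. Ccl9 and Ccl12 passed by r (0.89, adjusted exact permutation p = 0.0134, 9 libraries) and not by rho (0.82, adjusted p = 0.0538), with r = 0.72 without the 2 farthest. Ccl2 and Ccl6 passed by neither (r = 0.52 and rho = 0.57), although r was 0.83 without Aspirin replicate 3 and Hydrogel replicate 3. For Ccl6 and Ccl8, r was 0.91, but 0.53 without Aspirin replicates 1 and 2, so that relation rests largely on these libraries. The permutations ran over all 9 libraries without regard to group, so differences between groups can enter these p-values. For deviations from the group means, r was 0.93 for Ccl3 and Ccl4, and 0.86 for Ccl4 and Ccl7. It was 0.83 for Ccl9 and Ccl12 and for Ccl6 and Ccl8, and 0.80 for Ccl8 and Ccl12. Lower values were those of Ccl3 and Ccl7 (0.68) and of Ccl7 and Ccl8 (0.48). Groups of 3 libraries are too few for a value within a group.

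**Figure D4:**
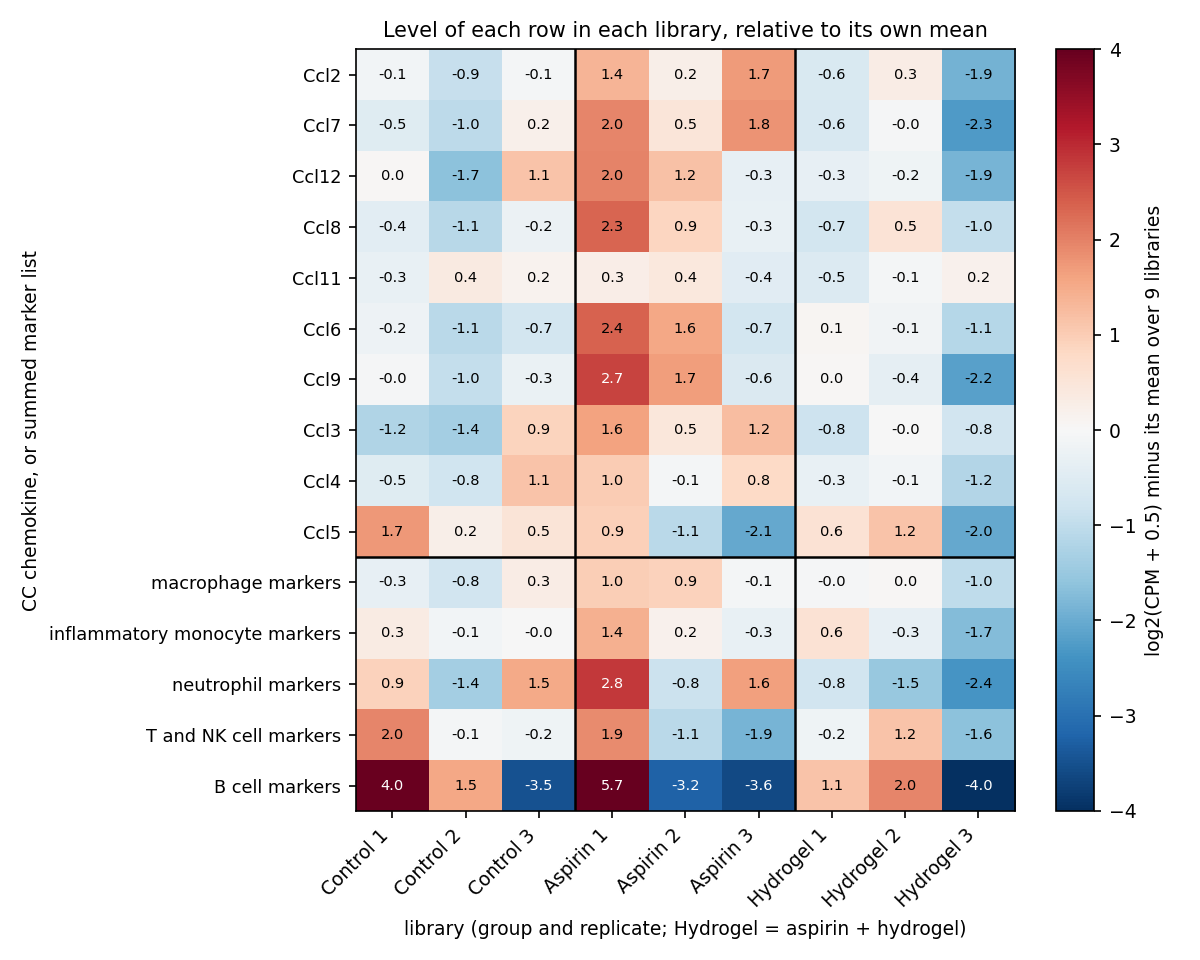
Level of each chemokine and of 5 summed marker lists in each of the 9 libraries, as log2(CPM + 0.5) minus its mean over the libraries (colour, red above and blue below, with the colour scale ending at -4 and 4; the value is printed in each cell). Ccl6, Ccl8, Ccl9 and Ccl12 share their high values in Aspirin replicates 1 and 2, Ccl2 and Ccl7 are high in Aspirin replicates 1 and 3, and B cell markers run beyond the scale.

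Markers of leukocytes and of the vessel wall differed between the libraries beside the chemokines. In bulk muscle RNA, fewer cells of a type and less RNA per cell cannot be told apart. The summed level of 12 macrophage markers, led by C1qb, was 406 to 858 CPM in the controls, 662 to 1377 CPM after aspirin, and 343 to 715 CPM in the hydrogel libraries, with none of the 12 at 0 in every library. In Aspirin replicates 1, 2 and 3 it was 1377, 1306 and 662 CPM, the same order as for Ccl6, Ccl8 and Ccl9. The 12 markers had positive log2 fold changes in 12 of 12 after aspirin (median 1.01) and negative ones in 12 of 12 for hydrogel against aspirin (median -1.01), with 0 called by edgeR. The sum of 7 resident macrophage markers, led by Mrc1, was 225 to 496 CPM after aspirin, above the 154 to 203 CPM of the controls and the 132 to 223 CPM of the hydrogel libraries. The sum of 6 endothelial markers, led by Cdh5, went the other way, at 177 to 252 CPM after aspirin, 300 to 559 CPM in the controls and 267 to 409 CPM in the hydrogel libraries. After aspirin, 7 of 7 resident macrophage markers had positive values (median 0.83) and 6 of 6 endothelial markers negative ones (median -1.04), with 0 called by edgeR in either list. No gene of either list was at 0 in every library. In Aspirin replicate 3, F13a1 alone gave 103 CPM of the resident macrophage sum of 225 CPM. Mrc1 (58.8 CPM) lay within the control range there, and Folr2 (8.77 CPM) and Lyve1 (5.49 CPM) lay below every control. Of single genes tested, 5.54% were higher after aspirin than in the controls without overlap, and 8.75% were lower with the hydrogel than after aspirin. The sum of 8 inflammatory monocyte markers, led by Hp, was 263 to 360 CPM in the controls and 234 to 771 CPM after aspirin. It was 84.9 to 423 CPM in the hydrogel libraries. Hp gave most of this sum, at 275, 215 and 223 CPM in the controls and 560, 251 and 165 CPM after aspirin. Of the 8 markers, 8 had positive log2 fold changes after aspirin (median 0.97), with 0 called by edgeR. For hydrogel against aspirin 8 were negative (median -1.66), again with 0 called by edgeR. Neutrophil markers, a list of 10 led by S100a9, stood at 112, 22.7 and 171 CPM in the controls, at 424, 32.8 and 185 CPM in Aspirin replicates 1, 2 and 3, and at 11.2 to 34.7 CPM in the hydrogel libraries. The neutrophil sum was thus highest in Aspirin replicates 1 and 3, the libraries in which Ccl2, Ccl7 and Ccl3 were highest. The part of these cells in the chemokine levels was not tested.

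Set against the macrophage markers, the Aspirin means of Ccl6 and Ccl7 lay closer to those of the other groups. Part of this follows from the scale itself, because the marker sum was also higher in Aspirin replicates 1 and 2. Per 1000 CPM of the summed macrophage markers, Ccl6 was at 94.6 ± 36.3 CPM in the controls, 192 ± 119 CPM after aspirin and 115 ± 12.8 CPM in the hydrogel libraries (SD, n = 3), with Aspirin replicate 3 at 75.5. Ccl7 was at 4.81 ± 0.697, 13.1 ± 9.26 and 3.36 ± 2.03 CPM on this scale, and Aspirin replicate 2 (4.38) lay among the controls. Ccl5 was at 12.8 ± 8.76, 2.24 ± 2.44 and 6.81 ± 5.11 CPM, with 5.04 or less in each Aspirin library and 5.90 or more in each control. Ccl11 was at 21.9 ± 11.5, 11.1 ± 1.27 and 20.6 ± 13.6 CPM, with 12.1 or less in each Aspirin library and 14.4 or more in each control. On this scale 2 of the 10 were thus lower after aspirin without overlap, against 11.8% of all genes tested. In CPM both genes overlapped between these groups, and the marker sum that divides them was higher in Aspirin replicates 1 and 2 than in any control, which lowers every gene's value on this scale in those libraries. With 3 libraries a group, an exact two-sided permutation test of a single value cannot go below 0.1, so no test is given. Control replicate 1, Aspirin replicate 1 and Hydrogel replicate 2 held the highest summed T and NK cell markers (117, 112 and 67.0 CPM, other libraries 7.83 to 28.4 CPM). They were also the 3 libraries highest in Ccl5. The same libraries were highest in B cell markers (275, 931 and 68.8 CPM, other libraries 0.634 to 51.1 CPM) and in Ccl22 (12.8, 4.26 and 7.98 CPM). This order of libraries is therefore not particular to Ccl5 or to T and NK cells. Of the 6 eosinophil markers, 4 were under 1 CPM in every library and the sum was 0.501 to 6.39 CPM. Ccl11 stood at 7.40 to 15 CPM, but CPM takes no account of transcript length and does not rank these genes against each other. The part of the lymphocytes was not tested.

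The receptors Ccr1 and Ccr2 were highest in the Aspirin group. Their genes lie on chromosome 9 (GENCODE vM21 on mm10), Ccr1 at 123962124 to 123968692 and Ccr2 at 124101950 to 124113557. Ccr1, the receptor of Ccl3, Ccl5, Ccl6 and Ccl9, stood at 3.95, 1.07 and 6.69 CPM in the controls, at 23.0, 8.27 and 11.5 CPM after aspirin, and at 2.03, 1.12 and 0.367 CPM in the hydrogel libraries. Ccr2 stood at 12.2, 5.38 and 7.48 CPM in the controls, at 20.8, 12.5 and 14.8 CPM after aspirin, and at 5.85, 6.95 and 3.44 CPM in the hydrogel libraries. For both receptors the 3 Aspirin values lay above the other 6. Of all genes tested, 5.54% were higher after aspirin than in the controls without overlap. For hydrogel against aspirin, 8.75% were lower without overlap. For hydrogel against aspirin, Ccr1 was at -3.59 ± 0.81 and Ccr2 at -1.56 ± 0.39 (log2 fold change, SE), with an adjusted p of 0.453 for each in edgeR. DESeq2 called both in that comparison, Ccr1 at -3.62 (adjusted p = 0.00143) and Ccr2 at -1.58 (adjusted p = 0.0323). For aspirin against control they were at 1.87 ± 0.75 and 0.94 ± 0.38 (adjusted p = 0.753 for each in edgeR). Ccr2 shares 1.91% of its 50-base words with other genes.

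The scavenging receptors, which bind CC chemokines without signalling through G proteins, were scarce in every library. Ackr1 stood at 2.35, 0.514 and 0.465 CPM in the controls, at 2.75, 0.398 and 0.543 CPM after aspirin, and at 2.95, 2.24 and 1.87 CPM in the hydrogel libraries, and it is uncertain because 20.4% of its 50-base words and 361 exonic bases are shared with Cadm3. Ackr2 ran from 0.121 to 2.69 CPM, with its lowest and its highest value both in the hydrogel group. Of the 15 receptor and decoy genes, 13 were tested and 0 were called by edgeR in either direction in any comparison. Their median log2 fold changes were -0.04 after aspirin, -0.31 for hydrogel against control and -0.48 for hydrogel against aspirin.

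**Figure D5:**
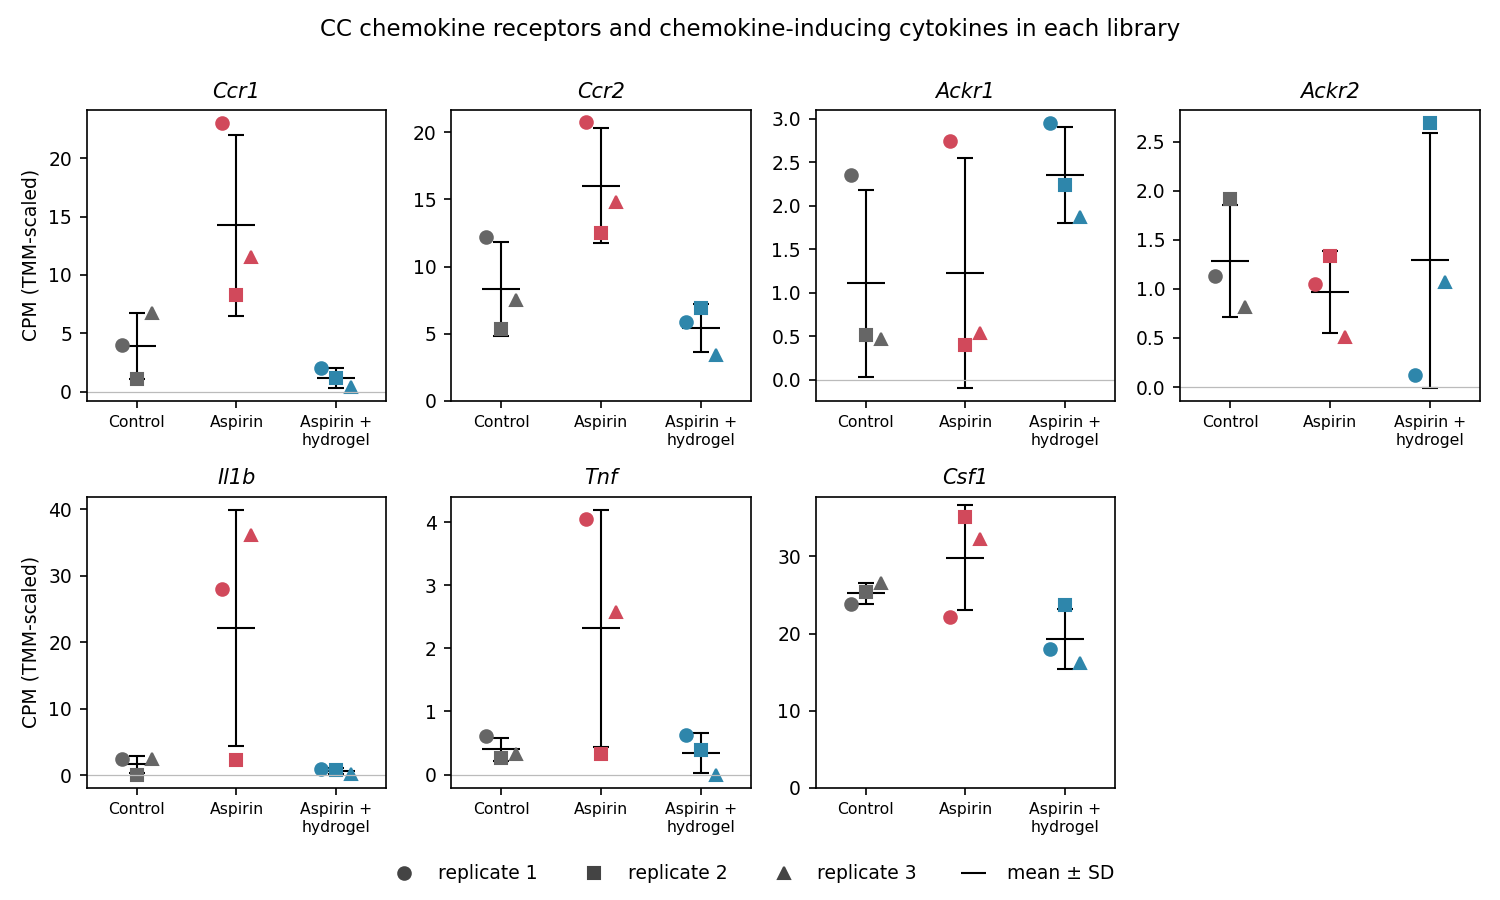
CPM (TMM-scaled, linear axis, one scale per gene) of the receptors Ccr1 and Ccr2, the scavenging receptors Ackr1 and Ackr2, and the cytokines Il1b, Tnf and Csf1 in each library of the 3 groups, with mean ± SD of 3 libraries. The Aspirin values of Ccr1 and Ccr2 lie above those of the other groups, and Il1b is high in Aspirin replicates 1 and 3 (28.0 and 36.2 CPM) but not in replicate 2 (2.30 CPM).

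Il1b and Tnf, cytokines that induce CC chemokines, were highest in Aspirin replicates 1 and 3, as Ccl2 and Ccl7 were. Il1b, the interleukin that macrophages and neutrophils release in injury, stood at 2.42, 0.134 and 2.41 CPM in the controls, at 28.0, 2.30 and 36.2 CPM in Aspirin replicates 1, 2 and 3, and at 0.968, 0.846 and 0.234 CPM in the hydrogel libraries. Tnf stood at 0.610, 0.268 and 0.320 CPM, at 4.05, 0.328 and 2.57 CPM, and at 0.629, 0.393 and 0 CPM in the same order of groups. Both were high in Aspirin replicates 1 and 3 and near the controls in replicate 2. For Il1b the log2 fold change was 3.74 ± 1.18 for aspirin against control and -5.00 ± 1.26 for hydrogel against aspirin (adjusted p = 0.753 and 0.453 in edgeR, and 0.0417 and 0.00103 in DESeq2). Csf1, the growth factor of macrophages, was at 25.2 ± 1.36, 29.9 ± 6.78 and 19.3 ± 3.92 CPM (SD, n = 3). Of 12 inducer genes, 8 were tested: 8 of 8 had positive values after aspirin (median 1.27) and 7 of 8 negative values for hydrogel against aspirin (median -1.51). None was called by edgeR.

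Regulators and signalling genes further along the pathway gave smaller values. Among regulators of chemokine transcription and mRNA decay, 17 of 17 were tested and 0 called by edgeR in any comparison, with medians of 0.07, -0.33 and -0.52. For hydrogel against aspirin the NF-kB subunit gene Nfkb2 was at -0.58 ± 0.25 (log2 fold change, SE), Irf5, a transcription factor of macrophages, at -1.14 ± 0.51, and Zfp36, whose product speeds the decay of cytokine mRNA, at -0.63 ± 0.40. Nfkb2 and Irf5 share 531 and 411 exonic bases with genes on the opposite strand, and whether counting used strand is not given. Among 11 genes of chemokine receptor signalling in leukocytes, 0 were called by edgeR. 9 were positive after aspirin (median 0.59), with the PI3-kinase gamma gene Pik3cg at 1.75 ± 0.71, and 11 of 11 were negative for hydrogel against aspirin (median -1.13), with its regulatory subunit Pik3r5 at -1.74 ± 0.71 and Arrb2, which uncouples receptors from G proteins, at -0.99 ± 0.36. Pik3cg stood at 31.4 CPM in Aspirin replicate 1 and at 5.79 and 7.63 CPM in replicates 2 and 3, beside 1.88 to 6.45 CPM in the controls. Without Aspirin replicate 1 it was at 0.59 for aspirin against control and at -0.40 for hydrogel against aspirin (-1.56 with it), and in the latter comparison Pik3r5 was at -1.16 and Zfp36 at -0.079.

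The remaining CC chemokines had medians close to or below 0. Of 11, 7 were tested and 0 called by edgeR, with medians of -0.01 after aspirin, -0.37 for hydrogel against control and -0.36 for hydrogel against aspirin. Ccl25, best known from thymus and gut, was at 3.76 ± 0.277 CPM in the controls, 6.54 ± 2.4 CPM after aspirin and 7.44 ± 0.951 CPM in the hydrogel libraries (SD, n = 3), with log2 fold changes of 0.80 ± 0.30 and 0.98 ± 0.30 against control (adjusted p = 0.753 and 0.987 in edgeR). It shares 204 exonic bases with Elavl1 on the opposite strand. Ccl22, which dendritic cells make, and Ccl19, a lymph node chemokine, were highest in Control replicate 1, at 12.8 and 11.8 CPM, and lowest in Hydrogel replicate 3, at 0.234 and 0.267 CPM. Ccl19 is uncertain because 52.0% of its 50-base words occur in other genes, chiefly Gm2564.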

How the data were processed

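RNA of 9 leg muscle samples was made into libraries with a SMARTER mRNA kit from 1 µg of total RNA, per the labels. The authors deposited raw counts per gene for every sample, which are whole numbers with no scaling, and FPKM values made from those samples. The submitters' processing notes name the build mm10; no source used here gives the aligner, the counter or the strand setting. 0 columns had no sample.

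edgeR 4.0.16 (R 4.3.3) was run on the deposited counts of 9 libraries in 1 quasi-likelihood fit of the 3 groups, without covariates, after TMM scaling and filterByExpr (minimum count 10, total 15), with Benjamini-Hochberg adjustment over 18259 genes at 0.05. The common biological coefficient of variation was 0.503. It was tested on simulated data. Intervals are 95%. No libraries agreed within sampling noise (smallest chi-square per degree of freedom 77.8). Alternatives were DESeq2 1.42.0, library size alone, no filter, the replicate number as a block, limma 3.58.1 on log2(FPKM + 0.1) and log2(FPKM + 1), and leaving out each library. Pairs of chemokines were tested with SciPy 1.17.1.

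For deviations from the group means, same-numbered Aspirin and Control libraries had r = 0.585, 0.147 and 0.244. Differently numbered ones reached 0.404 (Control replicate 3 with Aspirin replicate 2) and 0.254 (Control replicate 2 with Aspirin replicate 3). The remaining pairs of these groups ran from -0.492 to -0.266. These values do not settle whether the number marks a pairing. Same-numbered hydrogel libraries had 0.176, -0.26 and 0.309 with Control, and 0.215, -0.388 and 0.465 with Aspirin. The replicate numbers come from the sample titles.

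The 10 genes and the lists were chosen with earlier results of these data known. Named are the 10, the 3 genes of smallest unadjusted p over all groups in each pathway list among those averaging at least 1 CPM, the receptors Ccr1, Ccr2, Ackr1 and Ackr2, the gene of highest level in a marker list, and the genes most alike in pattern, except some that are not reported here; Cadm3, Elavl1 and Gm2564 are named only as genes that share sequence.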

Additional observations from a re-analysis of the deposited data

How the results depend on the processing

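Under every alternative run, edgeR and limma called 0 of the 10 chemokines, and the medians over the 10 kept their sign; of 360 values of single chemokines, 16 changed sign and 1 passed the threshold. DESeq2 called 101, 18, 157 and 153 genes for aspirin against control, hydrogel against control, hydrogel against aspirin and any group, where edgeR called 0 with 1183, 716, 1996 and 1272 at an unadjusted p under 0.05; it called 1 of the 10 chemokines, Ccl7 for hydrogel against aspirin. With the replicate block, 1 gene was called for hydrogel against aspirin and 0 elsewhere; it changed no chemokine's call, gave medians of 1.6, -0.3 and -1.83, and left 3 of the 10 with an unadjusted p under 0.05 for hydrogel against aspirin. Leaving out 1 library gave 0 to 2 genes for hydrogel against aspirin (2 without Aspirin replicate 3) and 0 to 1 for any group (1 without Aspirin replicate 2). With library size alone the all-gene medians were 0.27, -0.25 and -0.51 and those of the 10 were 2.13, -0.5 and -2.44.

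Other values changed sign, and the cause was not tested. For hydrogel against control, Ccl3 was at 0.34 with the replicate block and 0.23 by limma on log2(FPKM + 0.1), Ccl8 at -0.023 and -0.018 by limma with 0.1 and 1 added, and Pik3cg at -0.055 with library size alone and -0.007 by limma with 1 added. Ackr2 was at -0.18 with library size alone, -0.016 without a filter, -0.28 with the block and -0.47 and -0.071 by limma. Zfp36 for aspirin against control was at 0.21 with library size alone. For hydrogel against aspirin, Ccl25 was at -0.21 with library size alone and -0.16 and -0.083 by limma, Ccl22 at -0.15 by limma with 0.1 added, Ccl19 at 0.18 with the block, and Ackr2 at -0.073 with library size alone and -0.32 and -0.033 by limma.

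Leaving out 1 library in turn turned the sign of these values, given as lowest and highest. For aspirin against control they were Ccl11 (-0.16 to 0.28), Ccl19 (-4.08 to 0.33), Zfp36 (-0.75 to 0.035) and Ackr1 (-1.26 to 1.32). For hydrogel against control they were Ccl2 (-1.16 to 0.27), Ccl3 (-1.12 to 2.04), Ccl4 (-1.94 to 0.42), Ccl5 (-1.34 to 0.028), Ccl7 (-1.12 to 0.011), Ccl8 (-0.32 to 0.57), Ccl9 (-0.64 to 0.2), Ccl22 (-2.46 to 0.47), Tnf (-1.0 to 0.33), Pik3cg (-0.23 to 0.58) and Ackr2 (-1.11 to 0.55). For hydrogel against aspirin they were Ccl5 (-0.069 to 2.37), Ccl22 (-0.97 to 1.82), Ccl19 (-2.07 to 2.44) and Ackr2 (-0.71 to 0.96). Where a fit lost a library, the remaining 8 shared 1 estimate of the spread.

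Depth limits the scarce genes most: Ccl4 had 0 to 95 counts per library and Ccl12 2 to 404, so their low values carry counting error beside the spread between mice.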

Other observations

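Genes whose level followed the chemokine pool most closely were looked for among 14617 genes that average at least 1 CPM, by Spearman's rho between a gene's FPKM and the summed FPKM of the 10 chemokines over the 9 libraries. Hacd4, Adcy7 and P2rx4 had the same order of libraries as the sum (rho = 1.0). Apobec1 followed at 0.983, a value that 23 genes reached or passed. On the log2 scale Pearson's r was 0.968 for Hacd4, 0.951 for Adcy7, 0.926 for P2rx4 and 0.986 for Apobec1. P2rx4 encodes an ATP-gated channel and Adcy7 an adenylyl cyclase. All were picked as the closest of many genes on the same 9 libraries and share their depth and composition, so the values are a description.

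The sums over each group of neighbouring genes gave the same picture of the libraries. The 5 genes from Ccl2 to Ccl8 summed to 60.6, 33.8 and 57.2 FPKM in the controls, 462, 123 and 61.1 FPKM after aspirin, and 37.7, 83.4 and 24.0 FPKM in the hydrogel libraries. The 5 genes from Ccl5 to Ccl4 summed to 80.9, 30.4 and 44.9 FPKM, 553, 199 and 37.9 FPKM, and 64.9, 59.8 and 16.4 FPKM in the same order. In Aspirin replicate 3 the first group was thus just above the highest control, while the second lay between the lowest and the middle control.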
